A study of Arabidopsis thaliana with 12 samples.

Results

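The transcripts described here are those of the pseudo-response regulators PRR9 (AT2G46790), PRR7 (AT5G02810), PRR5 (AT5G24470), PRR3 (AT5G60100) and TOC1 (AT5G61380) of Arabidopsis thaliana. They were chosen by gene identifier, and all 5 were present among the 25729 genes measured. Transcripts were measured by RNA sequencing of whole 10-day-old seedlings, in 4 groups of 3 libraries that the submitters call biological replicates. The groups were tic-2 at predawn (ZT 0), Col-0 at predawn, tic-2 at postdusk (ZT 12) and Col-0 at postdusk, where ZT counts hours from lights-on. The tic-2 plants were labelled tic-2 -/- in the Col-0 ecotype and carry a mutation of TIME FOR COFFEE (TIC), a nuclear regulator of the circadian clock. Col-0 plants were the wild type. All plants grew at 22 °C on MS medium with 3% sucrose in what the labels call LD, whose day length is not given. The kind of lesion in tic-2 and the number of seedlings per library are not given either.

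The pseudo-response regulators are nuclear repressors of the plant clock. In the wild type their transcripts peak in a wave through the day, with PRR9 first in the morning, then PRR7, PRR5 and, towards dusk, PRR3 and TOC1, whose full name is TIMING OF CAB EXPRESSION 1. PRR9, PRR7, PRR5 and TOC1 repress the morning genes CCA1 and LHY, while the PRR3 protein is known to shield TOC1 from degradation. CCA1 and LHY in turn bind the evening element, a short promoter sequence, and repress the evening genes that carry it. With 2 harvest times, a wave that is shifted and a wave that is flattened cannot be told apart. In whole seedlings, fewer cells that express a gene and less RNA per cell cannot be told apart either.

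Values are FPKM, in which fragment counts are corrected for exon length and for the size of the library. Library denominators were between 19255016 and 21750340 reads. Because FPKM is scaled by length, levels of the 5 genes are set side by side, within the limits of the annotated exon lengths. Those lengths span all annotated transcripts of a gene, and the PRR5 model has no bases before its first coding base. The sum, shares and order of the members below carry this limit. The TIC transcript was measured at 77.5 ± 18.3 FPKM in tic-2 and 54.9 ± 2.46 FPKM in Col-0 at predawn, and at 79.7 ± 23.1 FPKM in tic-2 and 60.8 ± 2.93 FPKM in Col-0 at postdusk (SD, n = 3 each; limma adjusted p = 0.084 and 0.175). In 5 of 23 alternative settings it was called higher in tic-2 at predawn: without the tic-2 predawn library lettered A (limma adjusted p = 0.0441), without the tic-2 postdusk library lettered C (adjusted p = 0.0233), with the C libraries of tic-2 left out at both times (adjusted p = 0.0276), with array weights (adjusted p = 0.00754) and with the library letter as a replicate block (adjusted p = 0.0401). The level of the TIC transcript therefore does not check the genotype labels. Shoot markers were abundant in all groups (RBCS1A between 6506 and 9398 FPKM, mean per group), and the root marker PYK10 was between 918 and 1222 FPKM. Floral AG, AP3 and AP1 stayed at or under 0.188 FPKM. The seed storage gene SESA1 was at 72.5 FPKM in tic-2 and 31.0 FPKM in Col-0 at predawn, and at 60.1 FPKM in tic-2 and 2.83 FPKM in Col-0 at postdusk, and SESA2 was likewise higher in tic-2 at both times, at 26.7 FPKM in tic-2 and 10.2 FPKM in Col-0 at predawn and at 12.4 FPKM in tic-2 and 0.748 FPKM in Col-0 at postdusk. The third seed marker, CRA1, went the other way, at 86.9 FPKM in tic-2 and 125 FPKM in Col-0 at predawn and at 64.4 FPKM in tic-2 and 102 FPKM in Col-0 at postdusk. The part of seed transcripts in the results below was not tested. For 6 samples one label field names another column of the table than title and characteristics do, exchanging tic-2 at predawn with Col-0 at postdusk. Groups here follow the genotype and time in the column names, which match titles and characteristics. The morning gene CCA1 was at 180 ± 20.53 FPKM in the columns named for tic-2 at predawn and at 0.748 ± 0.0307 FPKM in those named for Col-0 at postdusk (SD, n = 3 each).

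The sequences before the gene starts are shown for their matches to the evening element, a site through which CCA1 and LHY act. The full element was found in some members and a shorter form in all of them. PRR9 lies on chromosome 2 (19232607 to 19235179, plus strand, assembly TAIR10.1). The other members lie on chromosome 5: PRR7 at 637681 to 642030, PRR5 at 8356204 to 8358546 and PRR3 at 24197971 to 24201415, all on the minus strand, and TOC1 at 24674963 to 24678550 on the plus strand. No annotated gene overlapped any of them. The sequences below are from the RefSeq TAIR10.1 genome, 5′ to 3′ along the gene's strand, and capitals mark matches to the motifs named after them. For PRR9, PRR5 and TOC1 the 250 bases before the annotated start are given, at chr2:19232357-19232606, chr5:8358547-8358796 and chr5:24674713-24674962. For PRR7 and PRR3 the last 60 bases before the start are given, at chr5:642031-642090 and chr5:24201416-24201475.
PRR9: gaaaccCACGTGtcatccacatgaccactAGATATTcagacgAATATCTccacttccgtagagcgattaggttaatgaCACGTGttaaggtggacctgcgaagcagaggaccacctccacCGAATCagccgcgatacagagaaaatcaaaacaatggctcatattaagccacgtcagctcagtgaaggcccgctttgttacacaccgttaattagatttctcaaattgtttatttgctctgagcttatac
PRR7: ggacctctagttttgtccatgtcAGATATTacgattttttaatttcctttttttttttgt
PRR5: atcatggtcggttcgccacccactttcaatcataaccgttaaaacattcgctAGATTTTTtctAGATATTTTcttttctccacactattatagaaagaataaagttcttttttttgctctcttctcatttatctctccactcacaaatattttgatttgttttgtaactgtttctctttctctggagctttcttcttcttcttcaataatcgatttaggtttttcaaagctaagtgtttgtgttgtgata
PRR3: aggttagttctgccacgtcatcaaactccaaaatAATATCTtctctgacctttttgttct
TOC1: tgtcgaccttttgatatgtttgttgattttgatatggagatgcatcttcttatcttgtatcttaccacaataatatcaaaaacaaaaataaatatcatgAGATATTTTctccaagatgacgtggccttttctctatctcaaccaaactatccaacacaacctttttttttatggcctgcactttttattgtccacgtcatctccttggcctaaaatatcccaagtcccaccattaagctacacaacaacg

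Motifs were searched on both strands in the 250 bases before and 50 bases after the annotated start of each gene. The evening element AAAATATCT was found in 3 of the 5 members, against 2.82% of 27437 promoters of the same length. In TOC1 it lay 151 to 143 bases before the start and in PRR5 187 to 179 bases before it, both on the opposite strand, so that it reads AGATATTTT in the sequences above. The evening element of PRR9 lay after the annotated start, at bases 27 to 35, in ttctctgagaAGATATTTTcgtggttgtga (chr2:19232623-19232652). A short form, AATATCT, which also lies inside the full element, was present in all 5 members, against 11.5% of promoters. It was the form found in PRR7, 37 to 31 bases before the start and again at bases 22 to 28 after it, and in PRR3, 26 to 20 bases before the start. PRR9 held 2 further short forms. The CCA1-binding site AAAAATCT was found in PRR5 alone among the members, close to its evening element, against 7.88% of promoters. The G-box CACGTG, bound by light-signalling factors such as the PIFs, occurred at 2 places in PRR9 and at 1 place in PRR7, against 7.68% of promoters. The LUX-binding site, GATACG or GATTCG, occurred once in PRR9, against 14.5% of promoters. No member held the TCP site GGNCCCAC, found in 1.32% of promoters. The annotated model of PRR5 begins at its first coding base, so its window stands closer to the coding sequence than those of the others, where 267 to 913 bases separate the 2 points. A match describes these letters and is no measurement of binding.

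**Figure D1:**
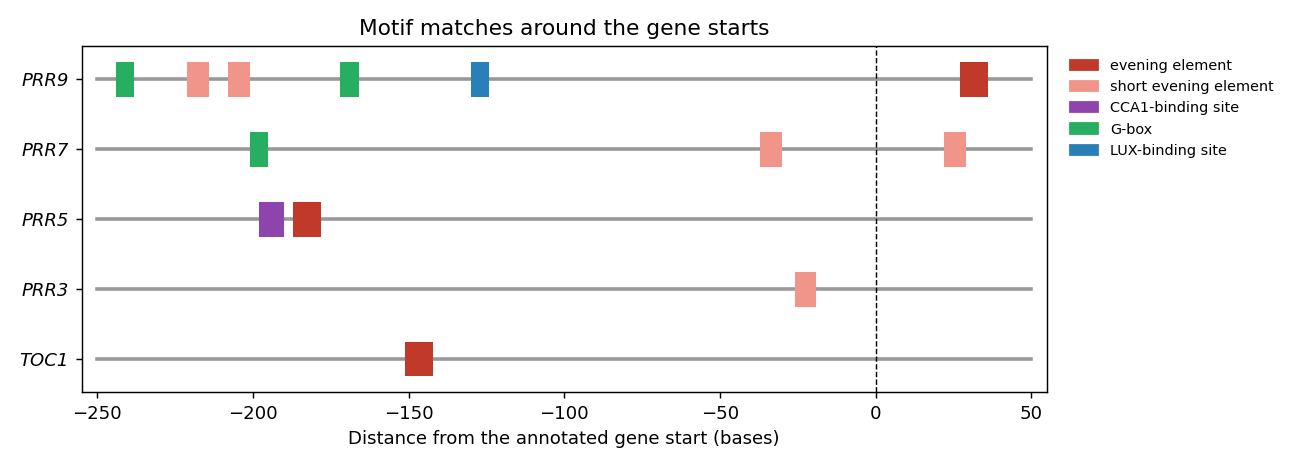
Positions of motif matches (coloured boxes) from 250 bases before to 50 bases after the annotated start of each gene, in bases from the start. The full evening element lies before the start in TOC1 and PRR5 and after it in PRR9, and G-boxes are drawn in PRR9 and PRR7 only.

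PRR9, the earliest member of the wave, was almost silent in Col-0 at both times and readily detected in tic-2. At predawn its level was 10.07, 6.78 and 8.90 FPKM in the 3 tic-2 libraries, against 0.0913, 0.433 and 0.167 FPKM in the 3 Col-0 libraries. At postdusk it was 3.38, 3.23 and 3.97 FPKM in tic-2, against 0.331, 0.488 and 0.489 FPKM in Col-0. Every tic-2 library was above every Col-0 library at each time, and within tic-2 the postdusk libraries were all below the predawn ones. The share of all genes with separated ranges is not given, so here and below separation describes the members only. The Col-0 values rest on 4 to 21 recovered reads per library, and the ranges of Col-0 at postdusk and at predawn overlapped. PRR9 passed the filter on low values only through its tic-2 libraries.

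PRR7, which follows PRR9 and acts with it in resetting the clock by light and temperature, had the highest mean level of the members in tic-2 at predawn. It stood at 45.9, 41.8 and 52.9 FPKM in tic-2 at predawn, against 0.891, 0.987 and 1.26 FPKM in Col-0. The postdusk libraries held 46.1, 44.7 and 61.4 FPKM in tic-2, against 18.4, 17.1 and 23.8 FPKM in Col-0. At both times the genotypes did not overlap. In tic-2 the postdusk and predawn ranges overlapped, whereas in Col-0 all postdusk libraries were above all predawn ones.

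PRR5, the afternoon member, had 17.1, 14.3 and 15.6 FPKM in tic-2 at predawn, against 0.437, 0.522 and 0.365 FPKM in Col-0. Its postdusk levels were 16.3, 14.1 and 24.0 FPKM in tic-2, against 20.8, 19.3 and 18.9 FPKM in Col-0. The genotypes were fully separated at predawn and overlapped at postdusk, where 1 tic-2 library was above and the other 2 were below the Col-0 range. Within tic-2 the 2 times overlapped as well.

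PRR3, which in the known wave peaks towards dusk, had 11.8, 9.66 and 10.2 FPKM in tic-2 at predawn, against 0.366, 0.495 and 0.491 FPKM in Col-0. At postdusk it had 25.8, 24.2 and 25.9 FPKM in tic-2, against 27.2, 25.6 and 31.7 FPKM in Col-0. The genotypes were again separated at predawn and overlapped at postdusk. In each genotype all postdusk libraries were above all predawn libraries.

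TOC1 had the smallest predawn ratio between genotypes, and it was the only member above 2 FPKM in Col-0 at predawn. Its level there was 42.0, 42.5 and 42.0 FPKM in tic-2, against 8.77, 8.94 and 8.44 FPKM in Col-0. The postdusk libraries had 69.4, 67.0 and 96.7 FPKM in tic-2, against 88.7, 92.6 and 84.2 FPKM in Col-0. Predawn values did not overlap between genotypes, and postdusk values did. The tic-2 postdusk library lettered C was the highest of its group for all 5 members. For PRR3 it exceeded the library lettered A by little.

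**Figure D2:**
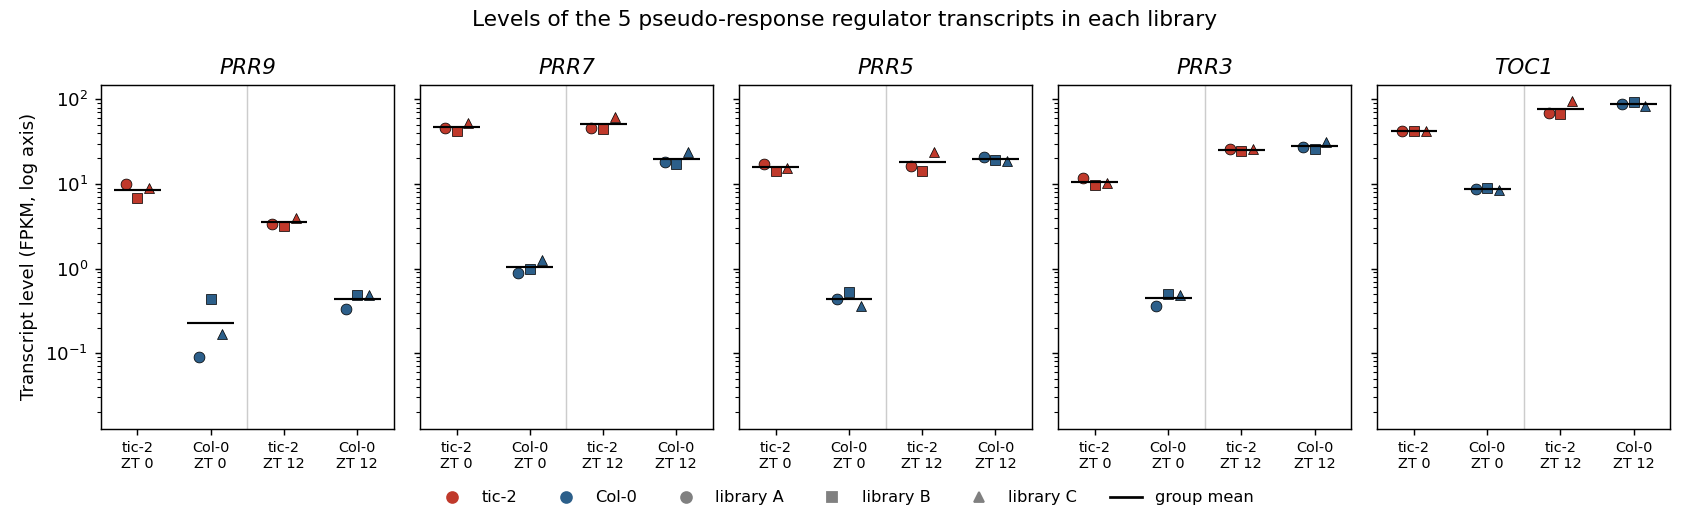
FPKM of each member in each library on a log axis, by genotype (colour) and time, with symbols for libraries A, B and C and a line at the group mean. At predawn all tic-2 points lie above all Col-0 points for the 5 members, and at postdusk this holds for PRR9 and PRR7. The share of all genes separated in this way is not given.

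The first comparison asked how the genotypes differed at predawn. In Col-0, PRR7, PRR5, PRR3 and TOC1 were lower at that time than at postdusk, and PRR9 was almost silent at both. Mean levels in tic-2 over Col-0 stood at a ratio of 37.3 for PRR9, 44.8 for PRR7, 35.5 for PRR5, 23.4 for PRR3 and 4.84 for TOC1. The denominators for the first 4 are 1.05 FPKM or lower, so these ratios carry large relative errors. Differences were tested with limma on log2(FPKM + 1), a scale that understates the change of low transcripts, with Benjamini-Hochberg adjustment across the 19274 genes left by the filter. All 5 members were called higher in tic-2 at an adjusted p under 0.05, against 13.1% of all genes tested. PRR9 entered the test only through its tic-2 libraries, so its place in this count is not separate support. The limma log2 fold change was 4.55 (SE 0.15, adjusted p = 4.19e-09) for PRR7, 3.53 (SE 0.15, adjusted p = 4.13e-08) for PRR5 and 2.99 (SE 0.10, adjusted p = 4.71e-09) for PRR3. By the same fit it was 2.96 (SE 0.15, adjusted p = 1.34e-07) for PRR9 and 2.15 (SE 0.12, adjusted p = 2.28e-07) for TOC1. Among rises at predawn PRR7 ranked 3 by log2 fold change, PRR5 ranked 9, PRR3 ranked 18, PRR9 ranked 19 and TOC1 ranked 53. The size depends on the pseudocount: with 0.1 in place of 1 the PRR9 value was 4.83 and with 5 it was 1.37, while TOC1 moved between 2.26 and 1.78.

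At postdusk the 5 members divided into those that were higher in tic-2 and those whose genotypes overlapped. PRR9 and PRR7, the early part of the wave, were called higher, 2 of 5 against 9.71% of all genes tested. Here too PRR9 entered the test only through its tic-2 libraries. PRR9 stood at 3.53 ± 0.394 FPKM in tic-2 and 0.436 ± 0.0911 FPKM in Col-0, a ratio of 8.09 (log2 fold change 1.66, limma adjusted p = 3.31e-05, n = 3 each). PRR7 stood at 50.7 ± 9.31 FPKM in tic-2 and 19.8 ± 3.57 FPKM in Col-0, a ratio of 2.57 (log2 fold change 1.32, limma adjusted p = 0.000165, n = 3 each). The late members were not called. The log2 difference was -0.14 for PRR5 (95% interval -0.48 to 0.19, limma adjusted p = 0.505), -0.15 for PRR3 (-0.37 to 0.08, limma adjusted p = 0.299) and -0.20 for TOC1 (-0.46 to 0.06, limma adjusted p = 0.211). Their mean ratios of tic-2 over Col-0 were 0.922, 0.897 and 0.878. The median of all genes at postdusk was -0.12, and 32.9% of all calls were rises. After median-of-ratios rescaling that median was -0.01, 57.1% of calls were rises, and the values were -0.02 for PRR5, -0.02 for PRR3 and -0.08 for TOC1. Without the tic-2 postdusk library lettered C, PRR5 was -0.35 and TOC1 -0.37, and limma called both lower (adjusted p = 0.0316 and 0.00501).

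The difference between the postdusk and the predawn genotype effects was tested as an interaction. It was negative and called for all 5 members, against 8.59% of all genes called lower. In this count, too, PRR9 passed the filter only through its tic-2 libraries. The interaction was -3.67 for PRR5 (limma adjusted p = 6.15e-07), -3.23 for PRR7 (adjusted p = 1.37e-06), -3.14 for PRR3 (adjusted p = 1.01e-07) and -2.36 for TOC1 (adjusted p = 2.22e-06). For PRR9 it was -1.30 (SE 0.21, limma adjusted p = 0.00137). The genotype effect was therefore smaller at postdusk than at predawn for each member, on the log2(FPKM + 1) scale.

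**Figure D3:**
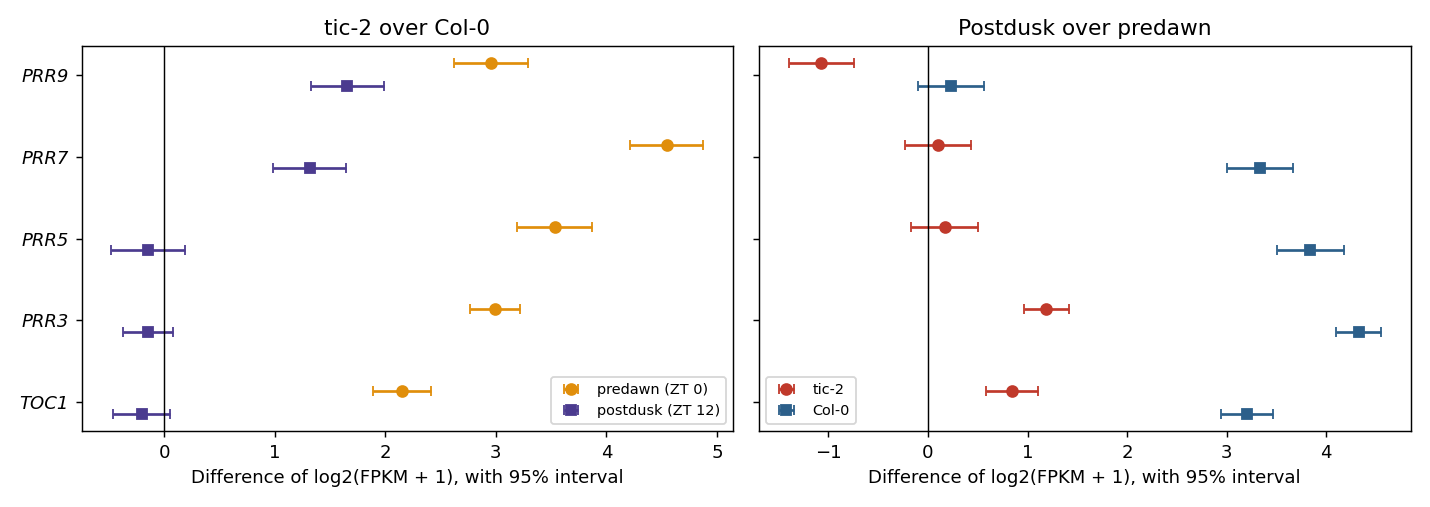
Differences of log2(FPKM + 1) with 95% intervals for each member, as tic-2 over Col-0 at predawn and postdusk (left) and as postdusk over predawn in tic-2 and Col-0 (right). Predawn genotype effects lie between 2.15 and 4.55, and the postdusk over predawn differences of PRR7 and PRR5 lie near 0 in tic-2 and at 3.33 and 3.84 in Col-0.

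Within each genotype the harvest times were then compared. In tic-2, 3 of 5 members were called in either direction between postdusk and predawn, against 37.9% of all genes. PRR9 fell, to 3.53 ± 0.394 FPKM at postdusk against 8.58 ± 1.67 FPKM at predawn (log2 fold change -1.07, limma adjusted p = 0.000178, n = 3 each). PRR3 rose, to 25.3 ± 0.966 FPKM at postdusk against 10.6 ± 1.13 FPKM at predawn (log2 fold change 1.19, limma adjusted p = 3.9e-06, n = 3 each). TOC1 rose as well, to 77.7 ± 16.5 FPKM at postdusk against 42.2 ± 0.251 FPKM at predawn (log2 fold change 0.85, limma adjusted p = 0.000166, n = 3 each). PRR7 and PRR5 in the mutant were not called, at 0.10 (95% interval -0.23 to 0.43) and 0.17 (-0.17 to 0.50), with limma adjusted p = 0.624 and 0.423. These intervals do not reach the time differences measured for the same transcripts in Col-0.

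In Col-0, 4 of 5 members were called higher at postdusk than at predawn, against 22.7% of all genes. The ratio of postdusk over predawn means was 62.6 for PRR3, 44.5 for PRR5, 18.9 for PRR7 and 10.2 for TOC1. On the log2 scale the differences were 4.33 (limma adjusted p = 7.53e-11), 3.84 (adjusted p = 5.73e-09), 3.33 (adjusted p = 1.59e-08) and 3.20 (adjusted p = 3.04e-09) in that order. In tic-2 the corresponding ratios were 2.40 for PRR3, 1.16 for PRR5, 1.08 for PRR7 and 1.84 for TOC1. PRR9 in Col-0 had 0.436 ± 0.0911 FPKM at postdusk and 0.230 ± 0.179 FPKM at predawn (SD, n = 3 each) and was not called (log2 difference 0.23, limma adjusted p = 0.261).

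The groups were also compared across both genotype and time, to set the predawn mutant beside the dusk level of the wild type. PRR9 in tic-2 at predawn was at 1969% of its level in Col-0 at postdusk, and PRR7 at 237%. PRR5 was at 79.8%, TOC1 at 47.7% and PRR3 at 37.5%. Of the 5 members 4 were called in this comparison, against 49.1% of all genes called either way. PRR9 (log2 fold change 2.73) and PRR7 (1.21) were higher in tic-2 at predawn, and PRR3 (-1.34) and TOC1 (-1.05) were lower, with limma adjusted p between 9.39e-08 and 4.28e-05. PRR5 was not called (log2 fold change -0.31, limma adjusted p = 0.115), although its 3 tic-2 libraries were all below the 3 Col-0 libraries. Without the tic-2 postdusk library lettered C, the limma adjusted p for PRR5 was 0.0168. That library is in neither group compared here, and enters through the estimate of spread and the set of genes tested. When tic-2 at postdusk was set against Col-0 at predawn, all 5 members were called higher, against 18.0% of all genes, with log2 fold changes from 1.89 for PRR9 to 4.65 for PRR7. In both comparisons PRR9 was testable only through its tic-2 libraries. These comparisons reuse the libraries of those above and are not independent of them.

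The 5 member transcripts summed to 124 ± 7.77 FPKM in tic-2 and 10.9 ± 0.436 FPKM in Col-0 at predawn, and to 175 ± 31.99 FPKM in tic-2 and 156 ± 2.25 FPKM in Col-0 at postdusk (SD, n = 3 each). The summed level did not overlap between genotypes at predawn and overlapped at postdusk. TOC1 made up 34.1 ± 2.42% of the sum in tic-2 and 80.1 ± 2.56% in Col-0 at predawn. PRR7 made up 37.8 ± 2.64% in tic-2 and 9.63 ± 1.85% in Col-0 at that time. At postdusk the share of TOC1 was 44.2 ± 1.29% in tic-2 and 56.6 ± 3.42% in Col-0, and that of PRR7 was 28.9 ± 0.267% in tic-2 and 12.6 ± 2.08% in Col-0. The share of PRR3 at postdusk was 14.7 ± 2.12% in tic-2 and 18.0 ± 1.76% in Col-0. PRR9 made up no more than 6.895% of the sum in any group mean.

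**Figure D4:**
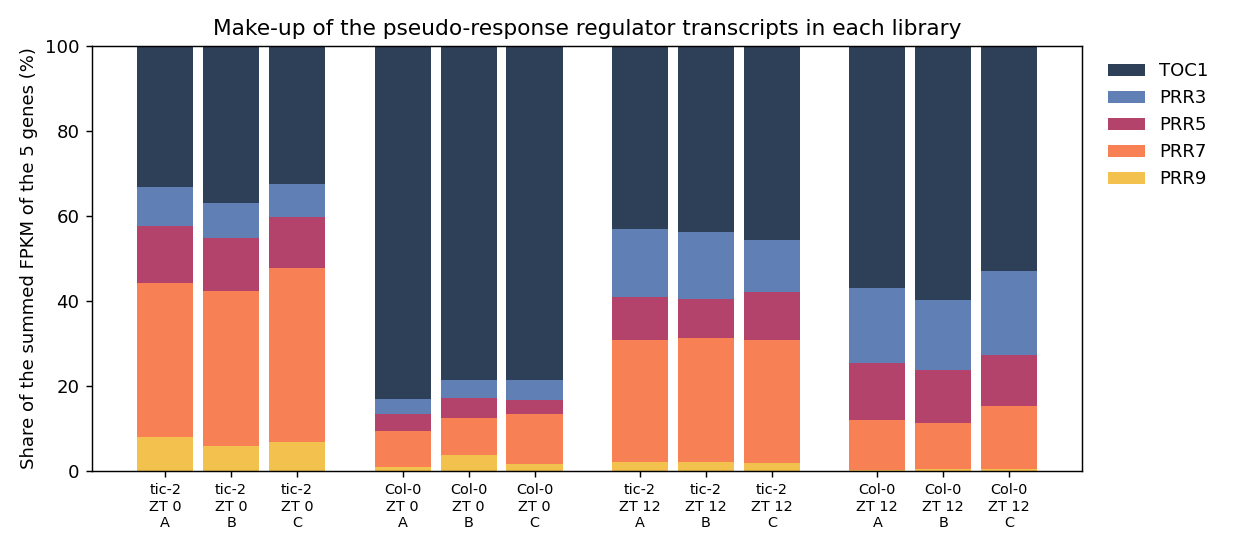
Share of each member in the summed FPKM of the 5 members, in percent, for each library. In tic-2 at predawn PRR7 holds 37.8% and TOC1 34.1% on average, while TOC1 holds 80.1% on average in Col-0 at predawn.

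The order of the mean levels differed between groups. In tic-2 at predawn it was PRR7, TOC1, PRR5, PRR3 and PRR9, with overlapping ranges between PRR7 and TOC1 and between PRR3 and PRR9. In Col-0 at predawn TOC1 was followed by PRR7, and the ranges of PRR3, PRR5 and PRR9 overlapped below them. At postdusk the order in tic-2 was TOC1, PRR7, PRR3, PRR5 and PRR9, and no neighbours in it overlapped. In Col-0 at postdusk it was TOC1, PRR3, PRR7, PRR5 and PRR9, with overlapping ranges of PRR7 and PRR5.

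The predicted proteins were compared because the members share 2 regions, a receiver-like domain near the start and a CCT domain near the end, which is the part that contacts DNA. The longest annotated products have 468 residues in PRR9, 727 in PRR7, 558 in PRR5, 522 in PRR3 and 618 in TOC1. Over aligned residues PRR7 and PRR3 were the closest pair, with 241 of 482 identical, followed by PRR9 and PRR5 with 44.9%. TOC1 shared between 27.2% and 31.7% with the others. The best-conserved window of 40 alignment columns in the second part of the proteins had a mean pairwise identity of 79.5%, with 25 columns identical in all 5, and lay at residues 533 to 572 of TOC1. That in the first part had 70.5%, with 23 identical columns, and lay at residues 95 to 134 of TOC1. The gene-level values do not separate splice forms, of which the annotation lists 7 for PRR3, 5 for PRR9 and 2 for PRR7.

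The genes around the pseudo-response regulators in the clock were read from 7 lists by role. For each, counts are of calls in tic-2 relative to Col-0, and the median of all genes was -0.03 at predawn and -0.12 at postdusk on the log2 scale. Of all genes tested, 13.1% were called higher and 14.6% lower at predawn, and 9.71% higher and 19.8% lower at postdusk, and the counts of each list stand beside these shares. Among the morning repressors, CCA1 and LHY, which PRR9, PRR7, PRR5 and TOC1 repress, were both lower at predawn and both higher at postdusk in tic-2. CCA1 stood at 180 ± 20.53 FPKM in tic-2 and 259 ± 21.2 FPKM in Col-0 at predawn, and at 60.6 ± 8.71 FPKM in tic-2 and 0.748 ± 0.0307 FPKM in Col-0 at postdusk (limma adjusted p = 0.00502 and 1.85e-10, n = 3 each). LHY stood at 158 ± 8.62 FPKM in tic-2 and 401 ± 23.2 FPKM in Col-0 at predawn, and at 31.5 ± 1.82 FPKM in tic-2 and 0.483 ± 0.0298 FPKM in Col-0 at postdusk (limma adjusted p = 4.23e-07 and 2.35e-11, n = 3 each). CHE, a TCP factor that works with TOC1 on the CCA1 promoter, was higher at predawn (log2 fold change 1.07, limma adjusted p = 0.000817) and not called at postdusk. At postdusk CCA1 and LHY were thus higher in tic-2 together with PRR9 and PRR7.

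The activators of the wave moved less at predawn. Of the 7 REVEILLE and LNK genes, which drive PRR5 and TOC1, none was higher, 1 was lower and 6 were not called at predawn, while 6 were higher and 1 was not called at postdusk (median log2 fold change -0.09 and 1.73). RVE8 stood at 67.5 ± 3.56 FPKM in tic-2 and 150 ± 9.25 FPKM in Col-0 at predawn, and at 22.7 ± 2.33 FPKM in tic-2 and 1.74 ± 0.443 FPKM in Col-0 at postdusk (limma adjusted p = 2.82e-05 and 1.91e-08, n = 3 each). At postdusk RVE4 stood at 58.3 ± 4.71 FPKM in tic-2 and 22.6 ± 1.62 FPKM in Col-0, and LNK2 at 47.9 ± 4.35 FPKM in tic-2 and 5.57 ± 0.836 FPKM in Col-0 (limma adjusted p = 3.24e-06 and 3.37e-07, n = 3 each). The call of LNK1 at postdusk was lost without the Col-0 postdusk library lettered B (adjusted p = 0.064). Of the 2 LWD genes, activators of CCA1 and PRR9, neither was called at predawn and LWD2 was lower at postdusk (log2 fold change -0.29, limma adjusted p = 0.0419). That call was lost on leaving out each of 8 libraries in turn, with an adjusted p as high as 0.131 without the Col-0 postdusk library lettered A. It was lost as well with rescaling by median of ratios (-0.18, adjusted p = 0.228) and quantile normalization (-0.19, adjusted p = 0.198). With array weights, limma called LWD1 higher at predawn (0.36, adjusted p = 0.00506). By the same weights LNK2 (-0.31, adjusted p = 0.0171) and RVE4 (-0.18, adjusted p = 0.0295) were lower at predawn. RVE6 was then higher at postdusk (0.27, adjusted p = 0.0152). These weights called 9532 of 19274 genes at predawn, against 5334 in the main fit.

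The evening complex, which represses PRR9 and PRR7 at night, had all 4 genes higher at predawn, and 1 higher, 1 lower and 2 not called at postdusk (median log2 fold change 2.10 and 0.11). LUX, its DNA-binding subunit, stood at 19.0 ± 1.004 FPKM in tic-2 and 1.38 ± 0.222 FPKM in Col-0 at predawn (log2 fold change 3.07, limma adjusted p = 1.13e-08, n = 3 each). Its relative BOA stood at 10.5 ± 0.963 FPKM in tic-2 and 0.806 ± 0.174 FPKM in Col-0, and the scaffold gene ELF3 at 39.3 ± 2.82 FPKM in tic-2 and 13.97 ± 0.880 FPKM in Col-0, also at predawn. ELF4 was higher at predawn (log2 fold change 1.52) and lower at postdusk (-0.85, limma adjusted p = 0.011). ELF3 was not called at postdusk (0.20, limma adjusted p = 0.127) but was called higher with rescaling by median of ratios (0.32, adjusted p = 0.0464) and with array weights (0.16, adjusted p = 0.0476). BOA was the gene called higher at postdusk (log2 fold change 0.83, limma adjusted p = 0.000293). All 4 interactions were negative and called, as for the pseudo-response regulators, against 8.59% of all genes called lower for the interaction.

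The genes for protein turnover encode ZTL, FKF1 and LKP2, F-box proteins of which ZTL targets TOC1 and PRR5 for degradation, and GI, which stabilizes ZTL. At predawn 2 were higher, 1 was lower and 1 was not called, and at postdusk 1 was lower and 3 were not called. The single fall at postdusk, 1 of 4, is near the share of all genes called lower. ZTL was at 22.9 ± 1.56 FPKM in tic-2 and 31.1 ± 0.881 FPKM in Col-0 at predawn (log2 fold change -0.43, limma adjusted p = 0.00135, n = 3 each). GI was at 5.14 ± 0.628 FPKM in tic-2 and 0.134 ± 0.0505 FPKM in Col-0 at predawn (log2 fold change 2.43, limma adjusted p = 4.02e-07, n = 3 each). At postdusk it was not called (-0.34, limma adjusted p = 0.0967). It was called lower in 3 of 23 alternative settings: without the tic-2 postdusk library lettered C (-0.47, adjusted p = 0.0342), with the C libraries of tic-2 left out at both times (-0.47, adjusted p = 0.0213) and with array weights (-0.40, adjusted p = 0.00415). ZTL at postdusk (0.15) was called higher with rescaling by median of ratios (0.27, adjusted p = 0.031), after quantile normalization (0.23, adjusted p = 0.049) and with array weights (0.16, adjusted p = 0.0188). FKF1 was at 2.26 ± 0.0693 FPKM in tic-2 and 0.0390 ± 0.0143 FPKM in Col-0 at predawn, and at 8.95 ± 1.67 FPKM in tic-2 and 31.1 ± 4.15 FPKM in Col-0 at postdusk (limma adjusted p = 3.77e-06 and 9.45e-06, n = 3 each). LKP2 was called lower at postdusk only without the tic-2 library lettered A (-0.30, limma adjusted p = 0.0488).

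The list of corepressors, of the kind that some pseudo-response regulators recruit, held TPL, TPR1 to TPR4 and HDA6. Of these 6, 1 was higher, 1 was lower and 4 were not called at predawn, and 1 was higher, 2 were lower and 3 were not called at postdusk, close to the shares of all genes called. All called log2 differences were within 0.46 of 0, the extreme being TPR3 at postdusk (-0.46, limma adjusted p = 0.00623). TPR1 was the gene called higher at predawn (log2 fold change 0.36, limma adjusted p = 0.00365). The predawn call of TPR3 was lost on leaving out each of 7 libraries (adjusted p up to 0.124, without the Col-0 predawn library lettered B) and under 6 other settings. The postdusk call of HDA6 was lost on leaving out each of 6 libraries (adjusted p up to 0.106, without the Col-0 postdusk library lettered C), with rescaling by median of ratios (-0.13, adjusted p = 0.285) and after quantile normalization (-0.14, adjusted p = 0.226). That of TPL was lost without the tic-2 postdusk library lettered A or the Col-0 postdusk libraries lettered A or C (adjusted p up to 0.0583).

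Of 6 output genes that the pseudo-response regulators are known to repress or counteract, the growth factors PIF4 and PIF5 and the flowering repressors CDF1, CDF2, CDF3 and CDF5, 5 were tested and CDF5 fell below the filter. At predawn 2 were higher and 3 were not called, and at postdusk 4 were higher and 1 was not called, against 13.1% and 9.71% of all genes called higher. PIF4 stood at 79.7 ± 6.11 FPKM in tic-2 and 6.42 ± 0.756 FPKM in Col-0 at predawn (log2 fold change 3.45, limma adjusted p = 1.72e-07, n = 3 each). PIF5 stood at 105 ± 15.8 FPKM in tic-2 and 67.0 ± 4.36 FPKM in Col-0 at that time (log2 fold change 0.63, limma adjusted p = 0.0141, n = 3 each). Its predawn call was lost without the Col-0 predawn library lettered A (adjusted p = 0.0527) or the tic-2 predawn library lettered C (adjusted p = 0.0547). CDF1 was not called at predawn (-0.50), but was called lower without the tic-2 predawn library lettered A (-0.72, limma adjusted p = 0.0212) and with array weights (-0.60, adjusted p = 0.00658). At postdusk CDF1 stood at 30.5 ± 2.78 FPKM in tic-2 and 5.99 ± 1.88 FPKM in Col-0 (log2 fold change 2.20, limma adjusted p = 6.18e-05, n = 3 each). CDF2 stood at 20.3 ± 3.88 FPKM in tic-2 and 6.10 ± 0.129 FPKM in Col-0 at postdusk (limma adjusted p = 1.83e-05, n = 3 each). PIF4 was not called at postdusk (0.46), but was called higher without the tic-2 library lettered B (0.62, limma adjusted p = 0.0283) and with array weights (0.35, adjusted p = 0.023). CDF2 at predawn (-0.31) was called lower only without the tic-2 postdusk library lettered C (adjusted p = 0.0495). PHYA, the far-red photoreceptor gene named in the series title, stood at 81.3 ± 12.98 FPKM in tic-2 and 33.4 ± 2.38 FPKM in Col-0 at predawn (limma adjusted p = 1.28e-05, n = 3 each). At postdusk it stood at 21.4 ± 1.82 FPKM in tic-2 and 22.0 ± 0.571 FPKM in Col-0 and was not called (limma adjusted p = 0.833).

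**Figure D5:**
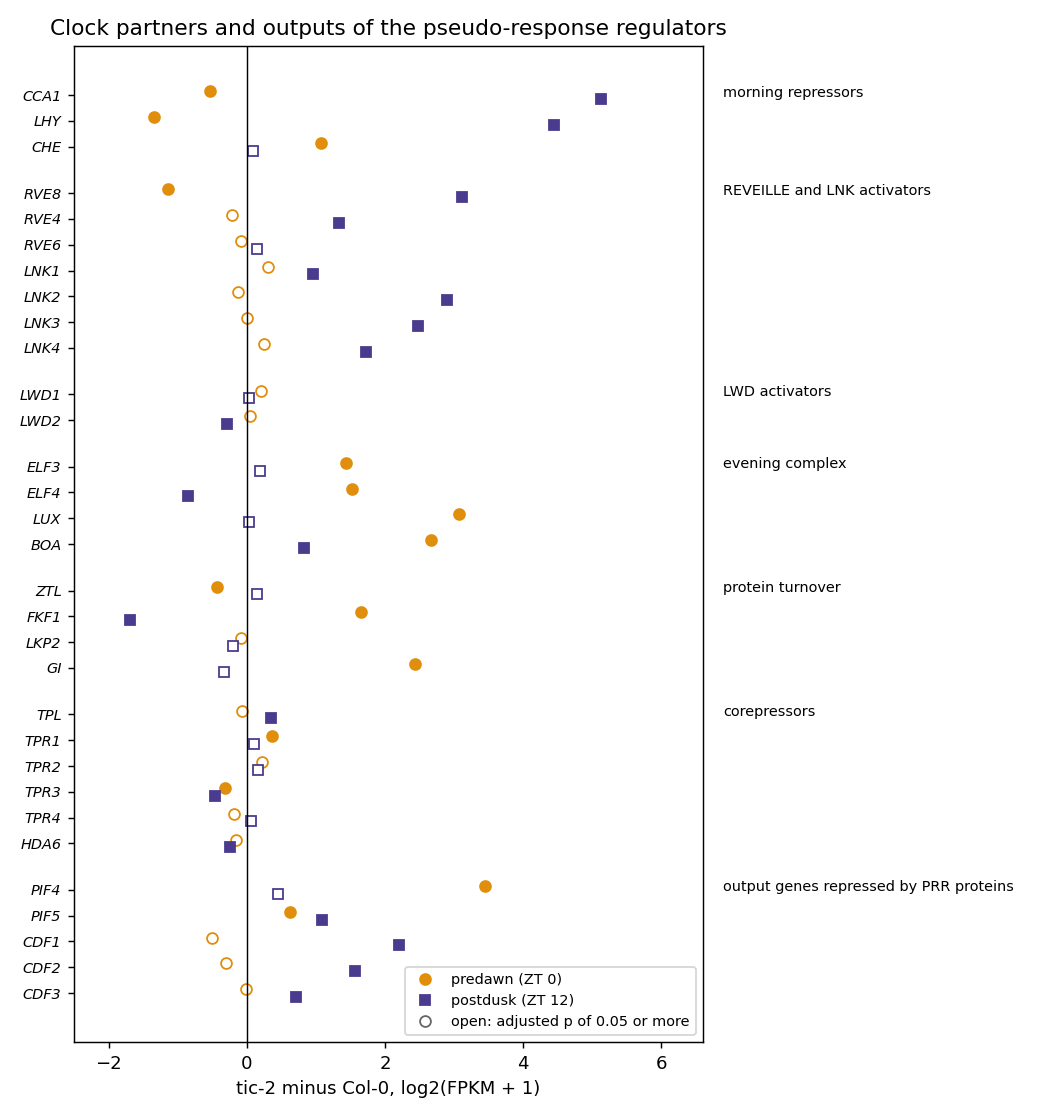
Difference of log2(FPKM + 1), tic-2 minus Col-0, for 31 clock partners and outputs grouped by role, at predawn (circles) and postdusk (squares), with open symbols where the adjusted p was 0.05 or more. The evening complex is higher in tic-2 at predawn, and CCA1 and LHY lie below 0 at predawn and above 4 at postdusk.

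The genes whose pattern over the 12 libraries was nearest to each member were found by the root mean square difference of centred log2(FPKM + 1), among 14911 genes. This measure describes the 4 groups together with their spread. For PRR5 the 3 nearest were AT4G32340 (0.225), Fes1B (0.244) and LUX (0.265). For TOC1 they were COL9 (0.241), AT1G17665 (0.250) and AT2G03310 (0.250), and for PRR3 AT5G62720 (0.297), AT4G32340 (0.318) and GI (0.323). PRR9 was nearest to AT2G06002 (0.281), the MIR167d locus (0.380) and AT1G05805 (0.422). The nearest genes of PRR7 were farther off, COR413IM1 at 0.554, AT4G32340 at 0.696 and Fes1B at 0.705. Among the members, PRR5 and PRR3 were closest to each other (0.454), followed by PRR5 and TOC1 (0.494) and PRR3 and TOC1 (0.497). PRR7 was 0.666 from PRR5, and PRR9 was between 1.23 and 1.72 from every other member. Most of these neighbours changed with the pseudocount: with 0.1 in place of 1, 5 of the 15 stayed among the nearest 3, and with 5 in its place 4 of the 15 did.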

How the data were processed

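The deposited table holds FPKM values made by the authors for 12 libraries. The submitters' processing notes name the TAIR10 build and the tools TopHat2, TopHat and edgeR, without versions or roles. How reads were counted is not given in the sources used here, although the library kit was directional per the labels. Reads were recovered from the FPKM steps with RefSeq TAIR10.1 exon lengths (25453 genes matched), and 99.4% to 99.5% of values per library were whole within 0.05 reads. The reads carry no molecular identifiers and are not independent molecules.

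A filter (1 FPKM or more in 3 or more libraries) left 19274 of 25729 genes, which were tested as log2(FPKM + 1) with limma 3.58.1 (R 4.3.3). The 4 group means were fitted together over the 12 libraries, with a mean-variance trend, and p-values were adjusted over all genes kept. The rest used Python 3.11.15 and MAFFT 7.526. Named genes were the 5 members, the 3 genes nearest each member and the morning and evening partners in 7 lists. From each list up to 4 genes were named by smallest adjusted p. The other list genes were given by count, and some also where an alternative setting changed their predawn or postdusk call. Members and lists were chosen with earlier results of these data known. The fit was tested on simulated data.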

Additional observations from a re-analysis of the deposited data

Results flagged for a closer look

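The genotype effect differed between the 2 harvest times for each of the 5 members, by limma's interaction test with Benjamini-Hochberg adjustment. The postdusk effect minus the predawn effect, on the log2(FPKM + 1) scale, was -1.30 for PRR9, -3.23 for PRR7, -3.67 for PRR5, -3.14 for PRR3 and -2.36 for TOC1 (adjusted p = 0.00137, 1.37e-06, 6.15e-07, 1.01e-07 and 2.22e-06 in the same order). In every case the 3 tic-2 libraries were above the 3 Col-0 libraries at predawn. At postdusk this was so for PRR9 and PRR7, and the ranges overlapped for PRR5, PRR3 and TOC1. The share of all genes with separated ranges is not given here, so the separation describes the members only. PRR9 passed the filter on low values only through its tic-2 libraries.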

How the results depend on the processing

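The 35 member values were recomputed in 800 combinations of value and setting, from 23 settings. No called value lost its call or changed sign, 10 values gained a call, and 4 uncalled values changed sign. The count of members called at postdusk was 2 as reported. It was 4, namely 2 higher and 2 lower, with array weights and without both tic-2 libraries lettered C, and from 2 to 4 when single libraries were left out, with 4 only without the tic-2 postdusk library lettered C. Among all genes at postdusk, 3305 of 19274 were called higher and 7138 lower with array weights. Without both C libraries 2139 of 19148 were called higher and 4401 lower. Without the tic-2 postdusk library lettered C alone, 1762 of 19225 were called higher and 3308 lower. The added calls among the members were PRR5 and TOC1, both lower: -0.25 and -0.33 with array weights (adjusted p = 0.0274 and 0.0013), and -0.35 and -0.37 without both C libraries (adjusted p = 0.0273 and 0.00298). The other gains were PRR5 in tic-2 at predawn against Col-0 at postdusk, lower in 4 settings. Across settings the predawn log2 fold change was between 1.37 and 4.83 for PRR9, 3.10 and 5.36 for PRR7, 1.92 and 4.87 for PRR5, 1.51 and 4.28 for PRR3, and 1.78 and 2.26 for TOC1, with both ends of each range set by the pseudocount. Among the values of list genes, TIC and PHYA, chosen for recomputation after the data were seen, 2244 were recomputed, of which 52 lost and 37 gained a call and 0 reversed.

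The labels do not say whether the replicate letters pair the samples. Over all genes, the deviations of same-letter libraries correlated at between -0.33 and 0.21 over 18 pairs, and 1 exceeded 0.1. Such correlations cannot exclude a pairing that touches single genes. PRR7 was highest in the library lettered C in every group. Its limma adjusted p at postdusk was 2.11e-05 with the letter as a block and 0.000165 without it. With the letter as a replicate block, the counts of members called were 5 at predawn, 2 at postdusk and 5 for the interaction, and the block changed no member's call, while TIC at predawn was called higher in tic-2 (adjusted p = 0.0401) and the calls of TPR3 at predawn and HDA6 at postdusk were lost (adjusted p = 0.0548 and 0.0589). Depth limits PRR9 most, with 4 to 21 reads per library in Col-0. In Col-0 at predawn PRR5 rests on 12 to 17 reads per library and PRR3 on 21 to 27.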
